A study of Mus musculus with 4 samples.

Results

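Death receptors are cell-surface receptors of the tumor necrosis factor (TNF) family that can kill the cell that carries them. When a ligand binds, the death domain in the tail of the receptor recruits adaptor proteins, the adaptors gather caspase-8, and caspase-8 cuts and activates the executioner caspases. The same complexes can instead send a survival signal through NF-κB, and which way they go depends on inhibitors such as cFLIP and the cIAP proteins. Neutrophils and their precursors are short-lived cells in which this route is one of the known ways to apoptosis. The 10 genes described here cover the route from the membrane to caspase-8: the receptors Fas, Tnfrsf10b, Tnfrsf1a and Tnfrsf1b, the adaptors Fadd, Tradd and Ripk1, and Casp8 with the inhibitors Cflar and Birc3. They were chosen by name from the 53465 genes of the count table, each name matched 1 row, and all 10 had enough reads to be tested (14682 genes were).

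The cells are MDSCs (myeloid-derived suppressor cells), a mixed population of immature neutrophils and monocytes that expands in cancer. They came from the spleens of male BALB/c mice, aged 6 weeks when injected with cells of 4T1, a transplantable mouse mammary carcinoma line, and were pulled out on magnetic beads by Gr-1, which the antibody sees on both Ly-6G and Ly-6C. The labels give sacrifice on day 21, whereas the study's methods give 2 weeks between injection and sorting. The sorted cells were kept for 6 h in control medium (2 libraries) or with EGCG, a green tea catechin, at 5 μg/mL (2 libraries). All 4 libraries thus come from tumor-bearing mice, there is no group without tumor, and no source says if libraries of one group are from separate mice or cultures, so that p values measure only the spread between these libraries.

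The libraries held from 17767318 to 18390385 counts. The test was edgeR's quasi-likelihood test, its p values adjusted by Benjamini-Hochberg over all tested genes, and levels are given as CPM, which express counts relative to the library total, the total being multiplied by its TMM factor. At an adjusted p under 0.05, 22 genes (0.15% of those tested) were called. The 8 neutrophil markers summed to between 50135 and 69638 CPM in a library, with Ly6g among them, whereas the 7 monocyte markers summed to between 945 and 1032 CPM. Markers of other spleen cells were present at lower levels, and some moved with the groups. The sum of 8 red pulp macrophage markers was 379 and 381 CPM without EGCG against 300 and 319 CPM with it, where 3 of 8 had an unadjusted p under 0.05 and a lower level. For 6 endothelial markers, 5 of them tested, the sum was 119 and 130 CPM against 96.8 and 102 CPM, and 4 of 5 had an unadjusted p under 0.05 and a lower level. The sums for monocytes and platelets were also lower in both EGCG libraries, and those for T cells (97.9 and 109 CPM against 111 and 116 CPM) and NK cells (6.07 and 6.48 CPM against 7.11 and 6.54 CPM) were higher in both. Those for neutrophils, B cells, dendritic cells, erythroid cells and tumor epithelium overlapped between groups. None of these markers passed the adjusted threshold, and of all marker lists Krt19 and Krt8 alone, which mark epithelial tumor cells, had 3 counts or fewer in every library. In bulk RNA, fewer cells of a type and less RNA per cell cannot be told apart, and the part of these cells in the results below was not tested.

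None of the 10 genes was called by edgeR's quasi-likelihood test (adjusted p from 0.366 to 0.866), where 0.15% of all tested genes were, 0.0136% with EGCG higher and 0.136% with EGCG lower. This split over all genes, 2 higher of 22, was 14 of 64 with DESeq2, 2 of 7 with the length correction and 119 of 354 without control replicate 2. DESeq2 called 0 of the 10 genes as well, but gave no adjusted p for Tnfrsf10b and Fadd. At an unadjusted p under 0.05 there was 1 gene, Tnfrsf1a, against a background of 12.2% (5.22% higher and 7.02% lower with EGCG). The log2 fold changes ran from -0.12 to 0.29 with standard errors from 0.07 to 0.26, 5 genes being above 0 and 5 below, and their median of 0.01 lay beside one of 0.0031 over all tested genes. Even so, the groups were apart, with no overlap of libraries, for 8 of the 10 genes, 4 with EGCG above and 4 with EGCG below, whereas the groups were apart for 42.8% of all tested genes (21.5% above and 21.2% below). The number of apart groups is a description, and no test was made over the list. With 2 libraries against 2, an exact permutation test of a single gene cannot give a two-sided p under 0.333.

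**Figure D1:**
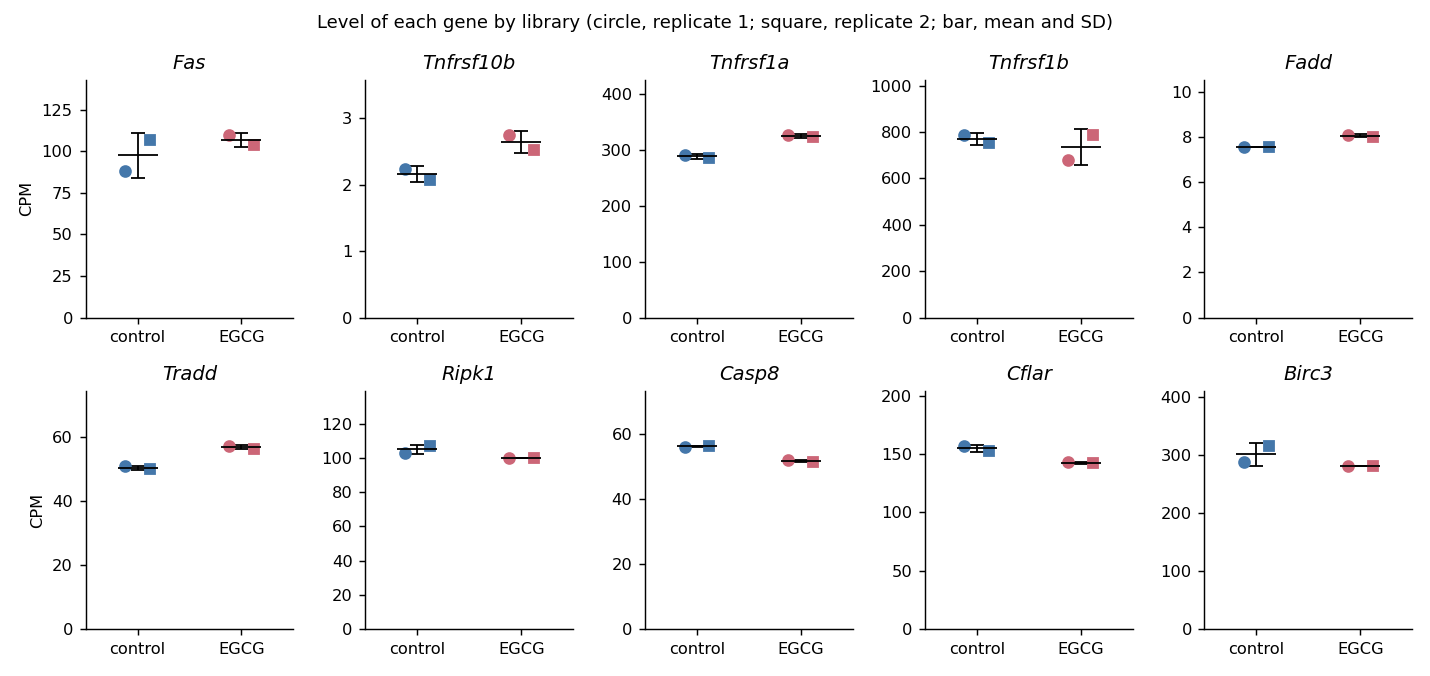
Level of each of the 10 genes in CPM (y axis from 0, a separate scale for each gene) in the 2 control and 2 EGCG libraries; points are libraries, and the bar with whiskers is the mean and SD. The groups overlap for Fas and Tnfrsf1b, and the differences between groups are small against the levels.

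Because levels are compared between genes only per length, CPM were divided by the exonic length in kb. Tnfrsf1b had the highest mean, 197 CPM per kb over the 4 libraries, followed by Tnfrsf1a with 118, Birc3 with 58.3, Fas with 49.6, Tradd with 28.7, Casp8 with 18.7, Ripk1 with 12.3, Cflar with 11.7, Fadd with 2 and Tnfrsf10b with 0.439. By exonic length the order thus spans 448-fold, from the receptor without a death domain at the top to the receptor of TRAIL at the bottom. Ripk1 and Cflar alone were neighbors whose library ranges overlapped (12 to 12.8 and 11.2 to 12.4 CPM per kb). Cflar is the member most affected by the choice of length, since its annotated exons add up to 12.7 kb and its longest coding transcript is 6572 bases. With the longest coding transcript in place of all exons, Cflar moved from rank 8 to rank 6, Casp8 to 7 and Ripk1 to 8, and the other 7 genes kept their ranks. The span was then smaller, since Tnfrsf1b stayed at 197 CPM per kb and Tnfrsf10b was at 0.753. Birc3 was at 100 and Cflar at 22.6 CPM per kb.

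**Figure D2:**
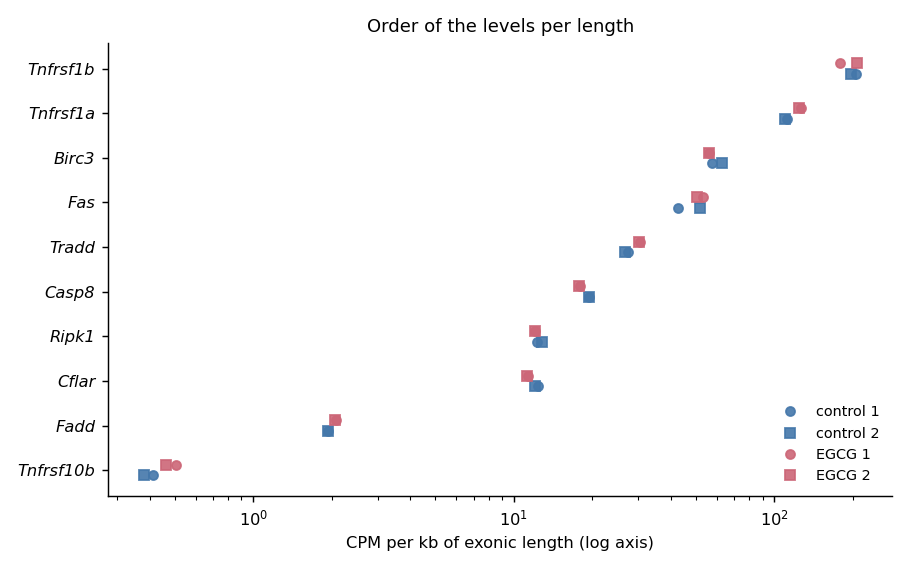
Level per length of the 10 genes, in CPM per kb of exonic length (log axis), one point for each library. Tnfrsf1b and Tnfrsf1a sit at the top, Fadd and Tnfrsf10b far below the rest, and the points of Ripk1 and Cflar overlap.

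The promoters are shown before the values of single genes, since the study blotted for NF-κB and STAT3 and a promoter can be searched for the letters that such factors bind. The set of RefSeq (GRCm38.p6) windows used here covered 8 of the 10 genes, with 9 windows in all because Ripk1 has a pair. Tnfrsf10b and Tradd had none in this set, which does not mean that RefSeq lacks a start site for them. The 250 bases before each RefSeq start site were searched on both strands. The letters of a STAT site were TTCNNNGAA, which read the same on either strand and were counted once. A GC box was searched as GGGCGG. The other motifs were the TATA box, searched as TATAAA, and the NF-κB consensus. The STAT letters were found in 4 of 9 windows, those of Fas, Tnfrsf1a, Tnfrsf1b and the downstream window of Ripk1, whereas 7.02% of 32841 mouse windows held them. A GC box was found in 5 of 9 windows (32.7% of all windows), a TATA box in 1 of 9, that of Cflar (12.4%), and the NF-κB consensus in 0 of 9 (3.9%). None of these matches overlapped a match of another motif in the windows with STAT letters. These are matches of letters in a fixed window, and binding was not measured in these libraries. The 250 bases before the start of Fas (chr19:34290409-34290658, plus strand) and of Tnfrsf1b (chr4:145246871-145247120, minus strand) are given 5′ to 3′ with the STAT letters in capitals, followed by short stretches around the same letters of Tnfrsf1a (chr6:125349473-125349497, plus strand) and Ripk1 (chr13:34002756-34002784 and chr13:34002853-34002873, plus strand).
Fas: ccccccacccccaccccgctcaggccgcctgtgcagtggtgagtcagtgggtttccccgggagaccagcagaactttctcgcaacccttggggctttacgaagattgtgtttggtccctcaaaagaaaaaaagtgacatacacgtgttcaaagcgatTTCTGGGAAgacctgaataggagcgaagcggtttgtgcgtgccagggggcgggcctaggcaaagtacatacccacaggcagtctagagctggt
Tnfrsf1b: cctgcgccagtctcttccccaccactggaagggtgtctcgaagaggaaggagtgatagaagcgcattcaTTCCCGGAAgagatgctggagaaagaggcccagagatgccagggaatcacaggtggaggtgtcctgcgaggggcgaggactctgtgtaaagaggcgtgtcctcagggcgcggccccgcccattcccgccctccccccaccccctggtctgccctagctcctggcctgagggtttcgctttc
Tnfrsf1a: gcttccTTCCGTGAAattgacaaca
Ripk1, distal: agaagctggtTTCCCGGAAggggcggagg
Ripk1, proximal: acttcaaacgTTCCCGGAAat
In Fas the letters began 93 bases before the RefSeq start site, in Tnfrsf1b 181, in Tnfrsf1a 244, and in Ripk1 108 and 11. The annotation used for gene positions starts Tnfrsf1a at 125349362 and Ripk1 at 34002363. By it, the letters of Tnfrsf1a and both Ripk1 places lie inside the gene, downstream of its annotated start. The window of Casp8, from 58802252, also lies inside its gene, which starts at 58795374. Tnfrsf1b and both Ripk1 places shared the same 9 letters, TTCCCGGAA. For the genes with STAT letters, the log2 fold change was 0.17 for Tnfrsf1a, 0.13 for Fas and -0.07 for both Tnfrsf1b and Ripk1. None of these genes was called. The sign turned for Fas without control replicate 1 (-0.0016), for Tnfrsf1b without EGCG replicate 1 (0.04) and for Ripk1 with the length correction (0.0044). Whether the letters go with a direction was not tested.

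Among the receptors, Tnfrsf1a had the smallest p of the 10 genes. It encodes the TNF receptor with a death domain (TNFR1), is ENSMUSG00000030341 and lies on the plus strand of chromosome 6 of GRCm38 from 125349362 to 125362484. Tnfrsf1a was at 291 and 285 CPM with control medium against 327 and 322 CPM with EGCG. Both EGCG libraries thus lay above both control libraries, and replicates of a group differed by 0.03 or less on the log2 scale. The means were 288 ± 4.26 CPM (SD, n = 2) and 324 ± 3.94 CPM (SD, n = 2), a difference of 12.6% with a 95% interval from 1.15% to 25.4%. The log2 fold change of 0.17 (standard error 0.07) had an unadjusted p of 0.0325 and an adjusted p of 0.366 in edgeR's quasi-likelihood test, so that it did not pass over all genes. Without TMM factors, by library totals alone, the log2 fold change was 0.14, and its unadjusted p in the same edgeR test rose to 0.0875. Leaving out each library in turn gave from 0.16 to 0.19.

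Tnfrsf1b, the other TNF receptor (TNFR2), has no death domain and signals through TRAF2 and the cIAP proteins. It is ENSMUSG00000028599, on the minus strand of chromosome 4 from 145213463 to 145246870. Tnfrsf1b was at 787 and 751 CPM with control medium against 680 and 789 CPM with EGCG. EGCG replicate 1 was the lowest of the 4 and EGCG replicate 2 the highest, so the groups overlapped. The log2 fold change was -0.07 (95% interval from -0.25 to 0.12, adjusted p of 0.813 in edgeR's quasi-likelihood test), and without EGCG replicate 1 it was 0.04.

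The balance of the TNF receptors can be read within a library, where no scaling enters. Reads of Tnfrsf1b per read of Tnfrsf1a were 2.7 in control replicate 1 and 2.63 in control replicate 2, and 2.08 in EGCG replicate 1 and 2.45 in EGCG replicate 2. The ratio was lower in both EGCG libraries, and its exact binomial 95% intervals (2.01 to 2.14 and 2.38 to 2.53) lay under those of the control libraries (2.62 to 2.79 and 2.55 to 2.72). These intervals cover counting error only. The EGCG libraries differed from each other by more than EGCG replicate 2 did from control replicate 2, and this was 1 of 8 ratios, all picked after values of these data had been seen, so none was tested. The groups were apart for 4 of the 8, beside 42.8% of single genes over the table, and the share for ratios of other gene pairs was not computed. Besides this one, these were Tradd to Ripk1 (0.496 and 0.468 without EGCG, 0.572 and 0.564 with it), Tradd to Fadd (6.75 and 6.63, then 7.06 and 7.05) and Ripk1 to Casp8 (1.83 and 1.89, then 1.92 and 1.94). For Tradd to Fadd the 95% intervals overlapped widely (5.64 to 8.13 and 5.53 to 8, then 5.94 to 8.45 and 5.91 to 8.46). Intervals were not computed for Tradd to Ripk1 and Ripk1 to Casp8. The groups overlapped for the other 4, which were Cflar to Casp8, Tnfrsf1a to Tradd, Birc3 to Birc2 and Ripk1 to Ripk3. No ratio was corrected for gene length, and Tradd has 1.87 kb of exons against 8.34 kb for Ripk1. With the length correction the log2 fold change went from 0.17 to 0.13 for Tradd and from -0.07 to 0.0044 for Ripk1, which are then closer. Casp8 went from -0.12 to -0.15, away from Ripk1, and Fadd stayed at 0.09.

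Fas encodes the receptor of Fas ligand and binds FADD through its tail. It is ENSMUSG00000024778, on the plus strand of chromosome 19 from 34290666 to 34327772. Fas was at 87.9 and 107 CPM with control medium against 110 and 104 CPM with EGCG. Control replicate 1 stood below the other 3 libraries, which lay between 104 and 110 CPM, and the control libraries differed from each other by 0.29 on the log2 scale. Between groups the log2 fold change was 0.13 (standard error 0.09, 95% interval from -0.07 to 0.33), with an adjusted p of 0.617 in edgeR's quasi-likelihood test. Leaving out control replicate 1 gave -0.0016 and leaving out control replicate 2 gave 0.28. Each of these fits has 1 control library, so its spread comes from the EGCG libraries alone.

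Tnfrsf10b encodes the mouse receptor of TRAIL. It is ENSMUSG00000022074, on the plus strand of chromosome 14 from 69767472 to 69784411, and had the fewest reads of the 10 genes. There were 41 and 37 counts with control medium against 50 and 45 with EGCG, or 2.24 and 2.07 CPM against 2.75 and 2.52 CPM. The EGCG libraries were both above the control libraries, but the exact Poisson 95% intervals of the counts overlapped throughout (29.4 to 55.6 and 26.1 to 51 in the control libraries, 37.1 to 65.9 and 32.8 to 60.2 in the EGCG libraries). No other of the 10 genes had so large a log2 fold change, 0.29, or standard error, 0.26. The 95% interval from -0.27 to 0.85 corresponds to -17.1% to 80.1%, and includes 0 (adjusted p of 0.706 in edgeR's quasi-likelihood test). Of the 31-base words of its transcripts, 11.4% also occur in transcripts of other genes, where counting could have split reads.

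**Figure D3:**
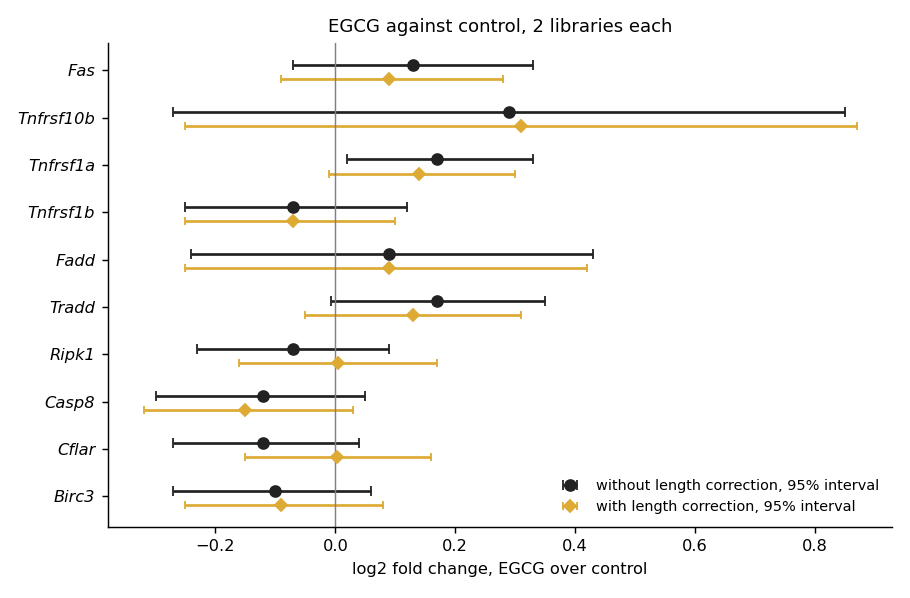
Log2 fold change of EGCG over control for the 10 genes, with 95% intervals, without (circles) and with (diamonds) the correction for gene length. Tnfrsf1a alone has an interval that leaves out 0 without the correction, and with it Cflar and Ripk1 move to 0.

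Of the adaptors, Tradd binds the death domain of TNFR1, and Fadd links Fas, the TRAIL receptor and, through Tradd or Ripk1, TNFR1 to caspase-8. Tradd (ENSMUSG00000031887, minus strand of chromosome 8, 105258286 to 105264609) was at 50.9 and 50 CPM with control medium against 57.2 and 56.4 CPM with EGCG. The groups were apart, with 50.5 ± 0.633 CPM (SD, n = 2) against 56.8 ± 0.576 CPM (SD, n = 2). This is a log2 fold change of 0.17 (standard error 0.08, 95% interval from -0.0071 to 0.35), with an unadjusted p of 0.0586 and an adjusted p of 0.431 in edgeR's quasi-likelihood test. Leaving out each library in turn gave from 0.16 to 0.19, as for its receptor.

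Tradd was also the gene whose pattern was most like that of Tnfrsf1a. Over the 4 libraries, the centered log2 CPM of Tradd lay at a root mean square distance of 0.0025 from those of Tnfrsf1a, the smallest among 13625 genes with at least 10 counts in every library. The next were Alkbh6 (0.004) and 2310009A05Rik (0.0045). Reads of Tnfrsf1a per read of Tradd were 5.72 and 5.7 with control medium against 5.72 and 5.71 with EGCG. This is closer than the reads can resolve, since the exact binomial 95% interval of the ratio in control replicate 1 ran from 5.33 to 6.14. The counting error of the log2 ratio in a library was 0.05, and 608 genes lay nearer to Tnfrsf1a than that, so that the order among them is not determined by these data.

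**Figure D4:**
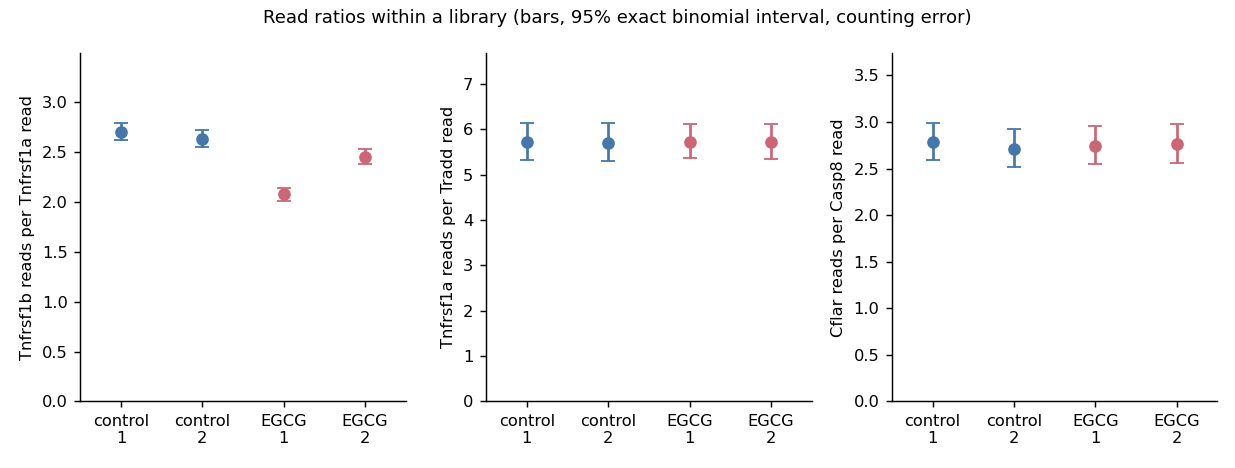
3 of the 8 ratios, as reads of one gene per read of another within each library (y axis from 0), with exact binomial 95% intervals that cover counting error only. The ratio of Tnfrsf1b to Tnfrsf1a is lower in both EGCG libraries, whereas those of Tnfrsf1a to Tradd (5.7 to 5.72) and of Cflar to Casp8 (2.71 to 2.79) are alike in all 4.

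Fadd (ENSMUSG00000031077, minus strand of chromosome 7, 144577318 to 144582463) had 138 and 135 counts with control medium against 147 and 143 with EGCG. In CPM these were 7.55 and 7.54 against 8.1 and 8, so that the EGCG libraries lay above, by less than the counting error of a library (95% interval of 116 to 163 for 138 counts). The log2 fold change was 0.09 with a 95% interval from -0.24 to 0.43 (adjusted p of 0.866 in edgeR's quasi-likelihood test, the highest of the 10 genes). Faddos, on the opposite strand, shares 239 exonic bases with Fadd (6.12% of its exonic length), and the counting did not use strand.

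Ripk1 encodes the kinase that is ubiquitinated in the TNFR1 complex for survival and that passes the signal on to caspase-8 or to necroptosis. Ripk1 (ENSMUSG00000021408, plus strand of chromosome 13, 34002363 to 34037147) was at 103 and 107 CPM with control medium against 100 and 99.9 CPM with EGCG. The EGCG libraries lay below and nearly coincided, and the log2 fold change was -0.07 (95% interval from -0.23 to 0.09, adjusted p of 0.767 in edgeR's quasi-likelihood test). With the length correction it was 0.0044. Its exons overlap those of Serpinb6a on the opposite strand in 241 bases and of Gm17084 on the same strand in 511 bases.

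Casp8 and Cflar are neighbors on chromosome 1, with 36489 bases between them. Casp8 encodes the initiator caspase, and Cflar encodes cFLIP, a relative of caspase-8 that lacks its protease activity and competes for its place on FADD. Casp8 (ENSMUSG00000026029, plus strand, 58795374 to 58847503) was at 56.2 and 56.4 CPM with control medium against 52.1 and 51.5 CPM with EGCG. Cflar (ENSMUSG00000026031, plus strand, 58711508 to 58758884) was at 157 and 153 CPM with control medium against 143 and 142 CPM with EGCG. For both genes the EGCG libraries lay below the control libraries, by 8.05% for Casp8 (95% interval from -18.6% to 3.88%) and 7.96% for Cflar (95% interval from -17.3% to 2.49%). The log2 fold change was -0.12 for each, with standard errors of 0.08 and 0.07 and adjusted p values of 0.598 and 0.549 in edgeR's quasi-likelihood test. The reads of Cflar per read of Casp8 were 2.79 and 2.71 with control medium against 2.74 and 2.76 with EGCG, and the groups overlapped. The length correction set these genes apart, giving -0.15 for Casp8 and 0.0028 for Cflar. Cflar shares 9.4% and Casp8 8.64% of its 31-base words with transcripts of other genes.

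Birc3 encodes cIAP2, a ubiquitin ligase of the TNF receptor complexes and a known target of NF-κB. Birc3 (ENSMUSG00000032000, minus strand of chromosome 9, 7848699 to 7873186) was at 288 and 316 CPM with control medium against 281 and 282 CPM with EGCG. Control replicate 2 was the highest, and control replicate 1 was only just above the EGCG libraries. Birc3 had a log2 fold change of -0.10 (95% interval from -0.27 to 0.06, adjusted p of 0.64 in edgeR's quasi-likelihood test), and leaving out control replicate 2 or 1 gave -0.03 or -0.16. Of its 31-base words, 11.6% also occur elsewhere, more than for any other of the 10 genes.

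Longer genes had lower fold changes over the whole table (Spearman correlation of -0.286, a description across genes). The lengths of the 10 genes run from 1.87 kb for Tradd to 12.7 kb for Cflar. A loess correction for length in each library brought the correlation to -0.0252, and moved Tnfrsf1a to 0.14 (adjusted p of 0.531 in edgeR's quasi-likelihood test) and Tradd to 0.13 (0.641). Casp8, Birc3 and Tnfrsf1b were then at -0.15, -0.09 and -0.07, so that with the values of Cflar and Ripk1 given above, 7 of the 10 genes lay above 0 in place of 5, and 0 had an unadjusted p under 0.05.

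Of 64 other genes of the pathway, written as 5 lists by function, 62 could be tested and 0 were called by edgeR's quasi-likelihood test. At an unadjusted p under 0.05, 3 lay above 0 and 4 below, where 12.2% of all tested genes had such a p. DESeq2, too, called 0 of them, but it gave no adjusted p for Fadd, with 135 to 147 counts in a library. Its filter goes by mean count, so genes of these lists with fewer counts, such as Fasl and Tnfrsf25, could not be called. With the length correction 6 had an unadjusted p under 0.05, 3 above 0 and 3 below, and 0 were called.

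Of the ligands, 6 of 7 were tested, with a median log2 fold change of 0.03. Its sign was not stable, with -0.15 with no filter, 0.21 with at least 10 counts in every library, -0.08 without control replicate 2 and -0.13 without EGCG replicate 1. Ltb, which encodes the membrane partner of lymphotoxin alpha, had the smallest p, with 13639 and 14345 counts with control medium against 17037 and 16028 with EGCG. Its log2 fold change was 0.25 (95% interval from 0.08 to 0.41), with an unadjusted p of 0.00714 and an adjusted p of 0.23 in the edgeR test. Tnf itself, named here as the ligand of the TNF receptors after its values were seen, had 1891 and 1654 counts against 1670 and 1502, a log2 fold change of -0.15 (95% interval from -0.34 to 0.03). With the length correction Tnf was at -0.20 (unadjusted p of 0.0312 in the edgeR test) and Ltb at 0.20 (0.0165). Fasl, the ligand of Fas, was at the edge of detection, with 11 and 10 counts with control medium against 2 and 8 with EGCG (log2 fold change of -1.05, standard error 0.63).

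Of the other listed receptors of the TNF receptor family, which include Tnfrsf12a and Ltbr, 7 of 8 were tested. Their median was -0.03 (0.11 without EGCG replicate 1 and -0.17 without EGCG replicate 2), with 0 at an unadjusted p under 0.05. Tnfrsf25, a death receptor found mainly on T cells, had both the smallest p and the largest log2 fold change, -0.81 (standard error 0.42, adjusted p of 0.469 in the edgeR test), from 21 and 18 counts with control medium against 12 and 10 with EGCG. Tnfrsf11b had 3, 0, 1 and 0 counts and stood at the floor.

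All 25 genes of the signaling complex (TRAFs, ubiquitin ligases, deubiquitinases and kinases) were tested, with a median of -0.0049. The largest value and the smallest p belonged to Traf3, an adaptor that restrains noncanonical NF-κB: 2674 and 2539 counts with control medium, 2331 and 2154 with EGCG, and a log2 fold change of -0.21 (95% interval from -0.37 to -0.05, adjusted p of 0.28 in the edgeR test). Tbk1, a kinase that restrains killing by RIPK1, and Tnfaip3, which encodes the deubiquitinase A20, were the rest of those at an unadjusted p under 0.05, with log2 fold changes of -0.19 and -0.17 (adjusted p of 0.324 and 0.406 in the edgeR test); both are named after their values were seen. With the length correction Traf3 was at -0.15 (unadjusted p of 0.0611 in the edgeR test) and Tnfaip3 at -0.12, whereas Tbk1 was at -0.20 (0.0175). The smallest p then belonged to Cyld, a deubiquitinase of the complex named here after its values were seen, which went from 0.08 to 0.20 (unadjusted p of 0.0169 in the edgeR test).

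The 12 execution and necroptosis genes had a median of 0.06, and 0 had an unadjusted p under 0.05. Zbp1, a sensor of necroptosis, had the largest log2 fold change, -0.25 (95% interval from -0.52 to 0.0091), from 495 and 597 counts against 419 and 494, which overlap in CPM. With the length correction Zbp1 was at -0.27 with an unadjusted p of 0.0382 in the edgeR test, so that the count of 0 did not hold there. Among 12 modulators (median -0.03), Tnfaip8l2 had the smallest p and the largest log2 fold change, 0.19 (95% interval from 0.03 to 0.34, adjusted p of 0.34 in the edgeR test). With the length correction Tnfaip8l2 was at 0.12 and its unadjusted p in the edgeR test went from 0.0252 to 0.107, so that it no longer had the smallest p or the largest log2 fold change of the list. Tnfaip8 (0.17) and Madd (-0.17), named after their values were seen, also had an unadjusted p under 0.05, and with the length correction they were at 0.27 and -0.08, with unadjusted p values of 0.00423 and 0.286 in the edgeR test. The p of Tnfaip8 was then the smallest of the 62 pathway genes tested.

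**Figure D5:**
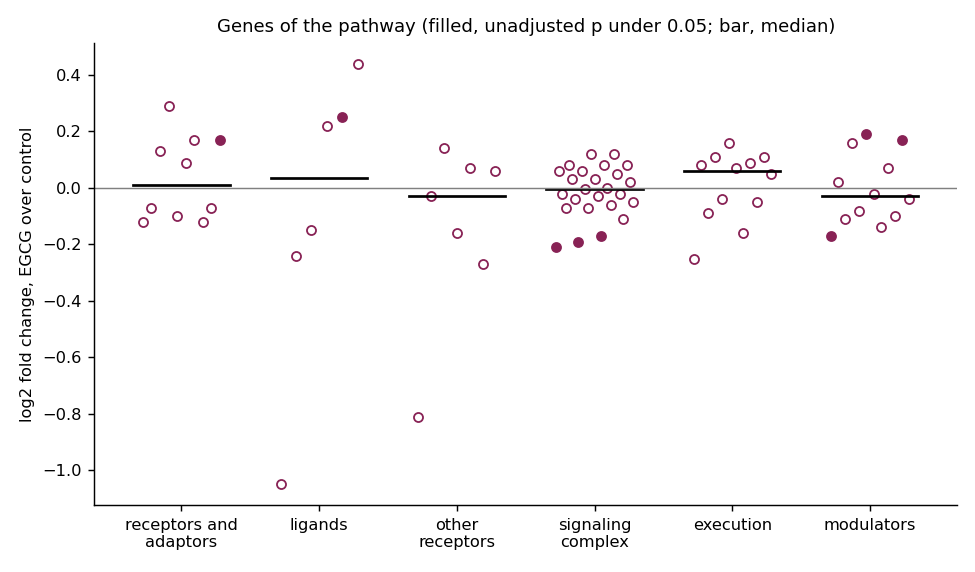
Log2 fold change of EGCG over control for the 10 receptors and adaptors and for the 62 tested genes of 5 other lists of the pathway; each point is a gene, filled where its unadjusted p is under 0.05, and the bar is the median. The medians of the 5 lists lie between -0.03 and 0.06, and no gene passed the adjusted threshold.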

How the data were processed

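Reads were aligned by the authors with STAR 2.6.0c (genome GRCm38), counted per gene with featureCounts 1.6.2 on Ensembl release 91 without using strand, and deposited whole-number counts that were not normalized. The table held 0 columns of other samples and 0 lines that name no gene. From the deposited counts, genes with few reads were dropped by filterByExpr (its minimum count set to 10) and TMM factors were computed. The difference between EGCG and control was tested with edgeR 4.0.16 by its quasi-likelihood F test (legacy option, no block), with Benjamini-Hochberg adjustment over 14682 genes and a threshold of 0.05. A standard error is the log2 fold change divided by the square root of F, and intervals are at 95%. Positions, exonic lengths and overlaps were taken from the GENCODE M21 annotation of GRCm38, where 53360 of 53465 identifiers were found, and promoter sequences from RefSeq (GRCm38.p6). Libraries held 17767318 to 18390385 counts, and replicates differed by more than sampling noise (mean chi-square per gene of 6.85 between control and 6.64 between EGCG libraries). Intervals from counts cover counting error only.

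The members and lists were chosen with earlier results of these data known. Named genes are the 10 members; in each list, genes past the threshold, the smallest p, the largest fold change and genes at 3 counts or fewer throughout; and the 3 genes nearest to the member with the smallest p by root mean square distance of centered log2 CPM (prior count of 2). Tnf, Tbk1, Tnfaip3, Cyld, Tnfaip8 and Madd were named outside it, after their values were seen. The values of 1 gene that this rule names are not reported here. Alternatives were other filters and scalings, edgeR's robust and newer fits, DESeq2 1.42.0, a loess length offset (span 0.4), a replicate block, and leaving out each library. The test and the offset were first tested on simulated data, but the outcome is not reported here and nothing above rests on it. Software was R 4.3.3 with limma 3.58.1, and Python 3.11.15 with pandas 2.3.3, NumPy 2.4.6 and, for plots, matplotlib 3.10.9.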

Additional observations from a re-analysis of the deposited data

How the results depend on the processing

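The 10 genes gave 0 calls under all 11 alternatives that kept all libraries. Over these and the fits with each of the 4 libraries left out, a gene kept its sign in 144 of 150 values. The exceptions were Ripk1, at 0.0044 with the length offset and 0.0049 with the replicate block and the length offset, Cflar, at 0.0028 in both of these fits, Fas, from -0.0016 (without control replicate 1) to 0.28, and Tnfrsf1b, from -0.18 to 0.04 (without EGCG replicate 1). The length offset is built to take out the trend of fold change with length. For the other exceptions, the cause was not tested. With all libraries kept, the lowest adjusted p of any of these genes was 0.328, that of Tnfrsf1a in edgeR's quasi-likelihood test (upper-quartile scaling or replicate block). A fit with 1 library left out has 1 library in that group, so its spread comes from the other group alone. The number of genes called over the whole table moved much more, from 22 to 0 with no filter, 11 with upper-quartile scaling, 151 with library size only, 63 with the robust fit, 64 with DESeq2, 7 with the length offset and 5 with the replicate block and the length offset. Leaving out 1 library gave between 77 (without control replicate 1) and 354 (without control replicate 2). Of these calls, those with EGCG higher were 2 of 22, and 2 of 11, 16 of 151, 14 of 63, 14 of 64, 2 of 7 and 2 of 5 with upper-quartile scaling, library size only, the robust fit, DESeq2, the length offset and the block with that offset, and 5 of 77 and 119 of 354 with control replicate 1 or 2 left out. No source says if same-numbered libraries of the groups are paired. Their deviations correlated at 0.0336 over genes, which cannot settle this with 2 libraries per group. The replicate block gave 30 calls, 0 of them among the 10 genes. Of 75 medians of the pathway lists under these alternatives, 13 moved by more than the spread between replicates. Those of the ligands ran from -0.15 to 0.21, of the other receptors from -0.17 to 0.11, of the signaling complex from -0.04 to 0.06 and of the modulators from -0.10 to 0.02, so that only the median of the execution genes (0.02 to 0.08) kept its sign under all of them. DESeq2 gave no adjusted p for Tnfrsf10b and Fadd. Depth limits Tnfrsf10b and Fadd most, with 37 to 147 counts in a library.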
